A study of Mus musculus with 9 samples.

Results

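A group of 10 genes of the p53 response and of cell cycle arrest was followed in mouse liver during thioacetamide injury and after 8 weeks without it. They were taken by symbol from the 21873 genes of the deposited expression table and are Cdkn1a, Cdkn2a, Cdkn2b, Mdm2, Ccng1, Plk2, Polk, Phlda3, Tnfrsf10b and Gdf15. All 10 were present and all 10 passed the filter on low values. They were selected on their FPKM in these same livers, with the differences between the groups already known from earlier results, so those differences are given as a description. No p-value is given for them, and where a count says how many of the 10 met the criteria used for all genes, it describes their size and spread and is no test of the 10.

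Thioacetamide (TAA) is a hepatotoxin that injures hepatocytes and, when given repeatedly, leaves a fibrotic liver. Male C57BL/6 mice, 8 weeks old at the start, received either TAA at 200 mg/kg or an equal volume of saline by intraperitoneal injection every 3 days for 8 weeks. Whole livers of 3 saline mice (control group) and 3 TAA mice (TAA group) were taken 72 h after the last injection, and those of 3 further TAA mice (recovery group) once 8 more weeks had passed with no injection. At collection the recovery mice were thus older by 8 weeks, no saline group of that age was analysed here, and the hour of collection is not given in the sources used here. In RNA of whole liver, fewer cells of a type and less RNA per cell cannot be told apart.

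The transcription factor p53 is held at a low level by the ubiquitin ligase Mdm2 and accumulates when DNA is damaged or the cell is otherwise stressed. It then activates genes that stop the cell cycle, repair DNA or start cell death, and also Mdm2 itself, which closes a feedback loop. Cdkn1a, its best known target, encodes p21, an inhibitor of cyclin-dependent kinases. Lasting arrest, known as senescence, is maintained by p21 and by the products of the neighbouring genes Cdkn2a (p16 and p19Arf) and Cdkn2b (p15), and senescent stellate cells and hepatocytes are known from injured liver.

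Promoter sequences are shown for 3 of the 10 genes because only their windows held a full p53 binding element under the search used. Each window, from RefSeq on GRCm38.p6, ran from 250 bases before to 50 bases after a transcription start, and windows were found for 9 of the 10 genes. The search was for the p53 consensus, which is 2 copies of a 10-base palindromic element, side by side or with a spacer of 1 base, and allowed at most 1 mismatch over the 20 consensus bases. The element reads the same on both strands, so each was found once. Single 10-base elements were counted only without a mismatch. Capitals mark the full elements and, in Cdkn1a, also a single 10-base element. The windows are those of the upstream start of Cdkn1a, chr17:29090729-29091028 on the plus strand, of Ccng1, chr11:40755237-40755536 on the minus strand, and of an internal start of Polk, chr13:96519138-96519437 on the minus strand.
Cdkn1a: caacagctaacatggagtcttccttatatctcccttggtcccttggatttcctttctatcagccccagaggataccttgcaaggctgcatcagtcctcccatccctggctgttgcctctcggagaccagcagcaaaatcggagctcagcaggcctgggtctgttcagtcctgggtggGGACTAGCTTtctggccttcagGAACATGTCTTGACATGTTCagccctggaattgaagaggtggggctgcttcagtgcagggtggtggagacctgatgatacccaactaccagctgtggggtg
Ccng1: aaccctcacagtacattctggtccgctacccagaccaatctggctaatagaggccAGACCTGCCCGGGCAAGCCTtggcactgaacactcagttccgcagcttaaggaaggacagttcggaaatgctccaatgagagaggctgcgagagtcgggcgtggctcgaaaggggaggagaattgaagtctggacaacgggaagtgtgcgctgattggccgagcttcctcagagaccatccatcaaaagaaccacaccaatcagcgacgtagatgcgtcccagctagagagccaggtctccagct
Polk: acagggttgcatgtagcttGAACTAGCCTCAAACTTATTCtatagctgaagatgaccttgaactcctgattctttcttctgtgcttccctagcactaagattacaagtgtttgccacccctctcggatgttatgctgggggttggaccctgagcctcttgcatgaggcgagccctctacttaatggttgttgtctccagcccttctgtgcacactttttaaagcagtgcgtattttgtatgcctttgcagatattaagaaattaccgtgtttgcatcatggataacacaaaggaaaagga

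The full element of Cdkn1a, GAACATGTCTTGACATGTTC, lay at positions -51 to -32 from the upstream start. The second RefSeq start of Cdkn1a, 2790 bases downstream, had no such element in its window. The element of Ccng1, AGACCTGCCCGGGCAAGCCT, lay at positions -195 to -176 and that of Polk, GAACTAGCCTCAAACTTATTC, at positions -231 to -211. The window of Mdm2 held a single 10-base element, at -186. Full elements were thus present in 33.3% of the 9 genes with a window, against 0.211% of all 27025 genes with a window and 9.52% of 21 other p53 target genes with one. At least a single 10-base element without a mismatch was present in 44.4%, 9.55% and 33.3% of the same sets, in that order. These matches describe letters in short windows, and no binding was measured.

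Levels are FPKM (fragments mapped to a gene, per kilobase of its length and per M mapped fragments in the library), as deposited by the authors with 1 value per gene and mouse, and divided here by a scaling factor per library. Because FPKM are per length, levels of different genes can be set side by side. Estimated depth was 26.9 to 40.5 M fragments per library. Groups were compared with limma on log2(scaled FPKM + 0.1) over the 14094 genes whose mean FPKM reached 0.1, and a gene met the criteria at a Benjamini-Hochberg FDR < 0.05 with a fold change of at least 2. Differences are on this log2 scale, where the added 0.1 draws those of genes with low FPKM towards 0. The scaling lowered TAA against control by 0.64 on the log2 scale, and without it the median gene stood 0.63 higher in the TAA group. Hepatocyte markers dominated every library, with a summed scaled FPKM of 6 genes of 21620 or more. The library of TAA mouse 3 stood apart in 6 skeletal muscle genes, whose summed level was 36.6 there and 0.153 to 0.426 in the other 8 libraries.

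Among the kinase inhibitors, Cdkn1a went from a low level in the control livers to the second highest of the 10 genes in the TAA livers, and was still high in the recovery livers. Its scaled FPKM was 0.870, 1.04 and 0.969 in control mice 1, 2 and 3, 27.2, 34.4 and 37.8 in TAA mice 1, 2 and 3, and 9.47, 16.8 and 20.3 in recovery mice 1, 2 and 3. The 3 groups did not overlap, with every recovery mouse between the highest control and the lowest TAA mouse. Mean levels were 0.959 ± 0.0838, 33.1 ± 5.43 and 15.5 ± 5.51 (SD, n = 3 each). The mean of the TAA group was 34.6 times that of the control group, and the mean of the recovery group was 16.2 times that of the control group. On the log2 scale the TAA group was higher than the control group by 4.96 ± 0.15 (SE), and the recovery group by 3.81 ± 0.28. Recovery mouse 1 had the lowest level of its group, and without it the recovery group lay 0.82 below the TAA group, compared with 1.15 with all mice, which no longer reached a 2-fold difference. The values rest on an estimated 68.6 to 111.5 fragments in the control libraries and at least 1051 in each TAA and recovery library. Cdkn1a spans chr17:29090976-29100727 (mm10, plus strand), and 273 of its 3553 exonic bases overlap the unclassified gene AC167363.2 on the other strand. The sources used here do not say whether strand was used in counting, so reads from these bases cannot be assigned to either gene.

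Cdkn2a, from which the p16 and p19Arf transcripts arise, was close to the detection limit throughout. Its scaled FPKM was 0.0738, 0.0762 and 0 in the control mice, 0.251, 0.165 and 0.182 in the TAA mice, and 0.112, 0.260 and 0.124 in the recovery mice. All TAA and all recovery mice were above all control mice, and TAA and recovery mice overlapped. The 3 libraries of a group together held an estimated 4.6 control, 36.5 TAA and 20.4 recovery fragments of this gene. At this depth the TAA group was 1.03 ± 0.31 (SE) higher than the control group and the recovery group 0.83 ± 0.32 higher. The table has a single value for the gene, so that p16 and p19Arf were not separated.

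Cdkn2b, whose product p15 inhibits the cyclin D kinases, lies next to Cdkn2a on chromosome 4 (4:89306299-89311039, minus strand, against 4:89274471-89294653 for Cdkn2a). It was measured at 0.130, 0.0949 and 0.1004 in the control mice, 0.561, 0.791 and 0.833 in the TAA mice, and 0.0457, 0.140 and 0.216 in the recovery mice. The TAA mice were separate from all others, and the recovery mice lay on both sides of the control mice. The TAA group was 1.98 ± 0.22 (SE) higher than the control group, and the difference of the recovery group from the control group was 0.10 ± 0.30. The recovery libraries held an estimated 2, 7 and 11 fragments.

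Mdm2 and Ccng1 act in the feedback on p53. Mdm2, the ligase that marks p53 for degradation, was at 10.33, 10.34 and 10.33 in the control mice, 14.2, 17.6 and 17.6 in the TAA mice, and 12.1, 11.7 and 9.29 in the recovery mice. It was the member with the smallest difference between the TAA and control groups, 0.66 ± 0.11 (SE) on the log2 scale, although these groups did not overlap. Recovery mice lay above and below the control mice. With FPKM as deposited, without scaling, the difference of Mdm2 between the TAA and control groups was 1.29.

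Ccng1 encodes cyclin G1, which directs a phosphatase to Mdm2. It was the most abundant of the 10 genes in the control and TAA livers, at 11.4, 10.7 and 10.9 in the control mice, 40.3, 44.4 and 39.2 in the TAA mice, and 10.07, 10.04 and 10.05 in the recovery mice. The TAA group was 1.90 ± 0.09 (SE) higher than the control group, and the recovery group was 2.03 ± 0.09 lower than the TAA group. All 3 recovery mice were below all 3 control mice, by 0.13 ± 0.07 between the groups, the only member with that order.

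Plk2 and Polk are targets with roles in the stressed cell cycle and in DNA replication past lesions. Plk2, a polo-like kinase, was at 5.05, 3.84 and 3.71 in the control mice, 9.46, 8.63 and 11.1 in the TAA mice, and 4.76, 5.24 and 5.09 in the recovery mice. Polk, the translesion DNA polymerase kappa, was at 1.62, 1.25 and 1.31 in the control mice, 3.23, 3.68 and 3.49 in the TAA mice, and 1.96, 1.53 and 1.40 in the recovery mice. For both genes the TAA mice stood apart and the recovery mice overlapped the control mice. The difference of the TAA from the control group was 1.20 ± 0.15 (SE) for Plk2 and 1.26 ± 0.14 for Polk, and that of the recovery from the control group was 0.27 ± 0.14 and 0.20 ± 0.18.

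Phlda3 and Tnfrsf10b act on cell survival. Phlda3, an inhibitor of Akt signalling, was at 0.283, 0.541 and 0.741 in the control mice, 12.02, 11.2 and 16.7 in the TAA mice, and 0.821, 0.585 and 0.999 in the recovery mice. Tnfrsf10b, a death receptor for the ligand TRAIL, was at 0.112, 0.0523 and 0.121 in the control mice, 2.46, 2.87 and 3.05 in the TAA mice, and 0.0898, 0.123 and 0.225 in the recovery mice. In the TAA livers these genes stood nearest to Cdkn1a in the size of their difference from control, at 4.48 ± 0.30 (SE) for Phlda3 and 3.91 ± 0.21 for Tnfrsf10b. In the recovery livers they overlapped the control mice, with differences of 0.58 ± 0.33 and 0.32 ± 0.27. The means of the TAA group were 25.5 and 29.4 times those of the control group, where an estimated 9.8 to 33.2 fragments per library for Phlda3 and 8.6 to 18.9 for Tnfrsf10b were present.

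Gdf15, a secreted stress cytokine of the TGF-beta superfamily that is also a target of the ATF4 and CHOP pathway, varied widely between mice of a group. Its scaled FPKM was 2.02, 2.55 and 0.709 in the control mice, 2.49, 4.84 and 6.18 in the TAA mice, and 3.28, 2.14 and 2.85 in the recovery mice. TAA mouse 1 lay below control mouse 2, so the groups overlapped. The TAA group was 1.38 ± 0.49 (SE) higher than the control group and the recovery group 0.77 ± 0.45 higher. Leaving out control mouse 3 gave 0.86 and leaving out TAA mouse 3 gave 1.11 for TAA against control.

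**Figure D1:**
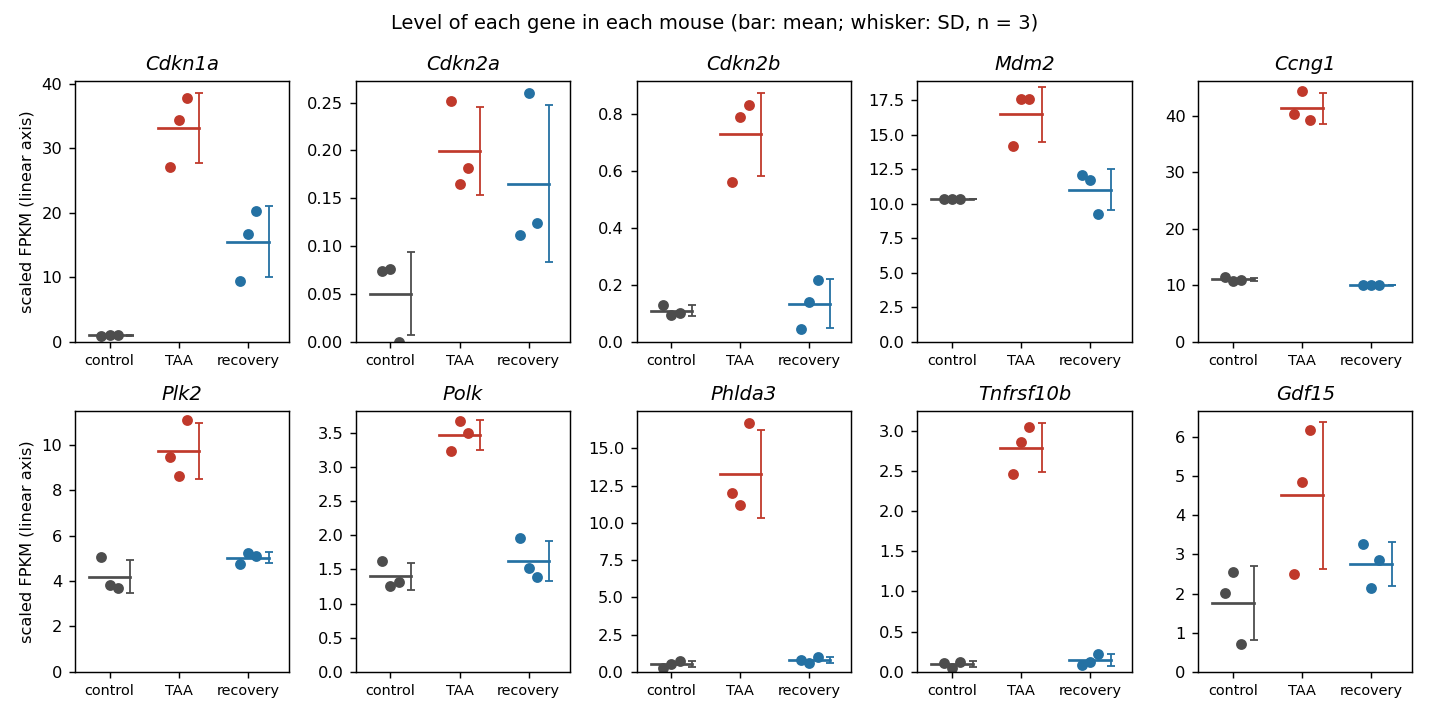
Scaled FPKM of the 10 genes on linear axes that start at 0, with a point for each mouse, a bar for the group mean and a whisker for the SD (n = 3 per group). Cdkn1a in recovery lies at 9.47 to 20.3, above all control mice at 0.870 to 1.04, while 7 of the other 9 genes overlap the control mice in recovery. Overlap is also the rule over all tested genes, of which 14.6% lie above and 15.6% below all control mice in recovery.

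Set side by side, 9 of the 10 genes met the criteria as higher in TAA than in control, where 17.0% of all tested genes did so and 8.02% were lower, and Mdm2 was the exception. Cdkn2a passed the filter on low values only with the TAA libraries included, where its level was highest. Its place among the 9 is therefore no support. Groups without overlap, the TAA group being the higher, were found for 9 of 10 genes and for 32.6% of all genes (31.0% with the control group higher), and here the exception was Gdf15. The median log2 difference was 1.64 over the 10 genes and 0.02 over all tested genes. Between the recovery and TAA groups, 6 genes met the criteria as lower (Cdkn1a, Ccng1, Phlda3, Tnfrsf10b, Polk and Cdkn2b), with 14.3% of all genes (and 7.12% higher), and the median was -1.10 against -0.01. The recovery mice lay below all TAA mice, without overlap, for 8 genes and for 31.0% of all genes, with 29.4% in the opposite order. Between the recovery and control groups, 1 gene met the criteria, Cdkn1a, which was higher, as were 0.582% of all genes (0.412% were lower), and the median was 0.29 against 0.01. There the recovery mice lay above all control mice for 2 genes, Cdkn1a and Cdkn2a, and for 14.6% of all genes, and below them for 1, Ccng1, and for 15.6%. Single mice decided some of these: Gdf15 no longer met the criteria in the TAA group without control mouse 1 or 3 or TAA mouse 2 or 3, Cdkn2a without control mouse 3 or TAA mouse 1 or 3, and Polk in recovery against TAA without recovery mouse 3. Since the genes were listed with these contrasts known, the counts describe the choice and are not evidence about p53 targets in general. Without scaling, 10 of 10 genes met the criteria as higher in the TAA group and 9 rather than 6 as lower in recovery against TAA. Of all 14094 tested genes, 4382 rather than 2389 and 3728 rather than 2014 did so, in that order. Among all genes that met the criteria in either direction in TAA against control, the share of higher ones was 91.2% without scaling. It was 67.9% after median scaling and 54.9% after quantile normalization. For recovery against TAA the share of higher ones was 33.2% after median scaling, 9.89% without scaling and 45.4% after quantile normalization, and for recovery against control 58.6%, 69.3% and 53.7%.

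**Figure D2:**
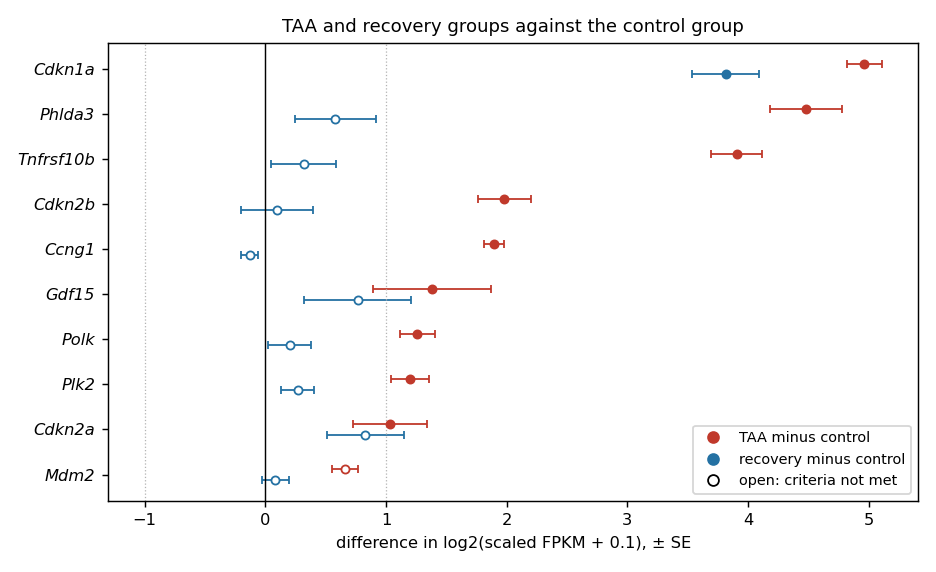
Difference of the TAA group (red) and of the recovery group (blue) from the control group for the 10 genes in log2(scaled FPKM + 0.1), with whiskers of 1 SE. Filled points met FDR < 0.05 with a fold change of at least 2, and Cdkn1a is the only gene with a filled blue point, at 3.81.

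The order of the 10 genes by mean level changed between the groups. In the control livers it was Ccng1, Mdm2, Plk2, Gdf15, Polk, Cdkn1a, Phlda3, Cdkn2b, Tnfrsf10b and Cdkn2a. There the mice of Gdf15 (0.709 to 2.55) overlapped those of Polk, Cdkn1a and Phlda3. The mice of Tnfrsf10b overlapped those of Cdkn2b and of Cdkn2a, while Cdkn2b and Cdkn2a did not overlap each other. In the TAA livers Cdkn1a ranked 2 of 10, with its mice at 27.2 to 37.8, below those of Ccng1 at 39.2 to 44.4 and above those of Mdm2 at 14.2 to 17.6. In the recovery livers Cdkn1a ranked 1 of 10 by its mean of 15.5, although in recovery mouse 1 it was 9.47, below Mdm2 (12.1) and Ccng1 (10.07) in the same mouse. Summed over the 10 genes, the level was 28.95 to 31.9 in the control mice, 112.2 to 136.2 in the TAA mice and 42.7 to 50.5 in the recovery mice.

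Cdkn1a was then compared with the other 9 genes within each recovery mouse. Relative to the control mean on the log2 scale, Cdkn1a stood at 3.18, 3.996 and 4.27 in recovery mice 1, 2 and 3. The median of the other 9 genes stood at 0.22, 0.21 and 0.60, and the highest of them at 1.03, 1.31 and 0.89. Cdkn1a was above every other member in each of the 3 mice. It exceeded the median of the others by 2.96, 3.78 and 3.67 (mean 3.47 ± 0.45, SD, n = 3). In the TAA mice the same excess was 3.42, 3.45 and 3.34 (mean 3.40 ± 0.06). The excess in the recovery mice spanned that in the TAA mice, while the median member itself went from 1.27 to 1.82 above control in the TAA mice to the values given for the recovery mice.

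The part of the TAA difference that was left after recovery was expressed as the log2 difference of recovery from control in percent of that of TAA from control. Both differences use the same 3 control mice. It was 76.9% for Cdkn1a, with 64.1%, 80.5% and 86.0% in the 3 mice. It was 22.3% for Plk2, 15.9% for Polk, 13% for Phlda3, 12.6% for Mdm2, 8.11% for Tnfrsf10b, 4.97% for Cdkn2b and -6.90% for Ccng1. Cdkn2a, at 80.1%, and Gdf15, at 55.4%, had small TAA differences and ranges over the recovery mice of 52.8% to 127% and 31.6% to 74.3%, so that their shares could not be told apart from that of Cdkn1a. Among all 2389 genes that met the criteria as higher in the TAA group, the median share left was 17.2%, and 60 genes (2.51%) had a larger share than Cdkn1a. Of the 83 genes among them with a log2 difference of at least 4, a limit chosen after the values were seen, none had a larger share than Cdkn1a, the next being Gldn at 56.1%, Mmp7 at 50.8% and Gstm3 at 41.5%. On the linear scale of mean scaled FPKM, 45.2% of the increase of Cdkn1a was left, with 26.4%, 49.1% and 60.0% in the 3 mice.

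By its signed log2 difference, from high to low, Cdkn1a ranked 24 of 14094 tested genes in TAA against control and 3 of 14094 in recovery against control. The genes above it in recovery, XLOC_040194 (4.39) and Mmp11 (3.97), did not meet the criteria. Genes whose profile was most like that of Cdkn1a were sought by the root mean square of the log2 distance over the 9 libraries, each gene taken relative to its control mean, among 11100 genes whose mean FPKM reached 1. Nearest were Gldn at 1.02, Gstm3 at 1.03, Cdc20 at 1.15, Ly6d and Cyp2b10 at 1.16 and 1.17, Ccdc120 at 1.21, Ccnb1 at 1.34, and Scube1, Hist1h1b and Epcam at 1.36 each, where the median gene was at 3.68. None of the other members was among these 10 genes. Gstm3, Cyp2b10 and Hist1h1b belong to families of similar sequence, between which reads could have been split. In the recovery livers these genes stood 1.58 to 2.47 above control, less than the 3.81 of Cdkn1a.

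Other p53 target genes were read from a list of 28, of which 27 passed the filter on low values. In TAA against control 8 rose and 1 fell, where 17.0% and 8.02% of all genes did so, and 18 did not meet the criteria. Eda2r, a receptor of the TNF receptor family, rose by 4.99 ± 0.23 (SE, adjusted p = 6.31e-06, limma with Benjamini-Hochberg adjustment), from a mean of 0.209 to 9.47 scaled FPKM. Dram1, a regulator of autophagy, rose by 2.02, Zmat3, an RNA-binding protein, by 1.91, and Bax, a pore-forming effector of apoptosis, by 1.72. Ei24, a membrane protein linked to autophagy and named here after its value was seen, fell by 1.29 ± 0.08, a fall that did not meet the criteria without scaling or with quantile normalization. The median of the list was 0.33, against 0.02 over all genes.

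In recovery against TAA 7 of the 27 fell and 1 rose (Ei24), where 14.3% and 7.12% of all tested genes did so. Eda2r fell by 4.63 ± 0.26 (SE). Zmat3 fell by 1.63, Bax fell by 1.45 and Apaf1, the scaffold of the apoptosome, fell by 1.33. None of the 27 met the criteria in recovery against control by limma, where 6 had an unadjusted p under 0.05 and the smallest adjusted p was 0.0515. The median difference there was 0.13. Eda2r, with a TAA difference close to that of Cdkn1a, was at 0.310, 0.157 and 0.441 scaled FPKM in the 3 recovery mice and at 0.244, 0.266 and 0.115 in the control mice. It overlapped the control group, which Cdkn1a did not.

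**Figure D3:**
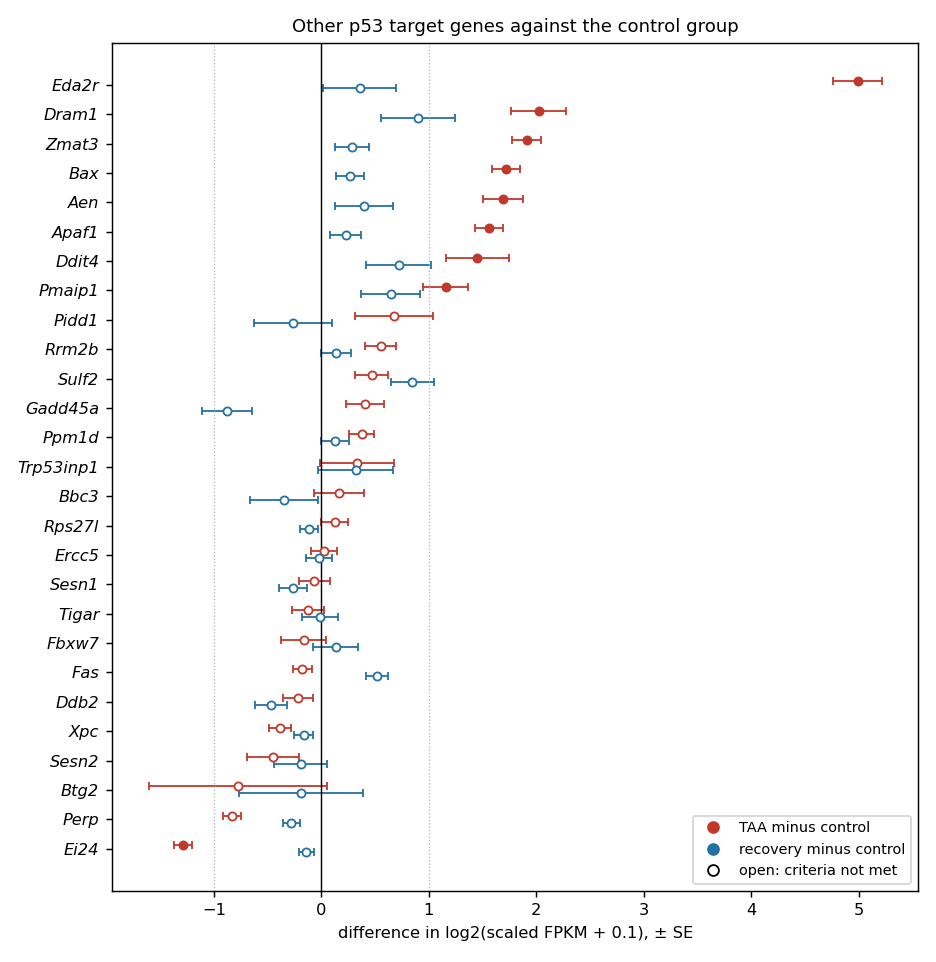
Difference of the TAA group (red) and of the recovery group (blue) from the control group for 27 other p53 target genes in log2(scaled FPKM + 0.1), with whiskers of 1 SE. Of the red points, 8 are filled above 0 and 1 below it (criteria met), and no blue point is filled.

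Of the p53 family and its regulators, 11 of 13 listed genes were tested, and 3 rose in the TAA group, where 17.0% of all tested genes did so. Trp53, which encodes p53, was at 4.89, 5.49 and 5.68 in the control mice, 11.1, 10.7 and 10.7 in the TAA mice and 5.60, 5.92 and 7.75 in the recovery mice. It rose by 1.01 ± 0.10 (SE), just past the 2-fold limit, and no longer met it without control mouse 1 (0.94) or without TAA mouse 1 (0.99). The checkpoint kinase genes Chek1 and Chek2 rose by 2.85 and 2.30, and in recovery they fell by 2.85 and by 2.59. Chek1 passed the filter on low values only with the TAA libraries included, where its level was highest. Its place in these counts is therefore no support. Mdm4, a partner of Mdm2 in restraining p53, differed from control by -0.33 ± 0.13 in TAA and by -0.05 ± 0.10 in recovery. None of the 11 met the criteria in recovery against control, where 3 had an unadjusted p under 0.05 in limma. Of all tested genes 0.993% met them there.

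Among 7 other kinase inhibitors and RB family genes, 2 rose in the TAA group, Cdkn2c and Rbl1, where 17.0% of all tested genes did so. Cdkn2c, which encodes the inhibitor p18, was at 1.54, 1.85 and 1.83 in the control mice, 6.95, 5.405 and 6.17 in the TAA mice and 3.55, 5.05 and 4.49 in the recovery mice. It exceeded control by 1.77 ± 0.14 (SE) in TAA and by 1.27 ± 0.16 in recovery (adjusted p = 0.0208 in recovery, limma with Benjamini-Hochberg adjustment). It was the only listed inhibitor of cyclin-dependent kinases, apart from Cdkn1a, to meet the criteria in recovery, and its recovery mice did not overlap the control mice. Its call in recovery was lost without any single control mouse, without recovery mouse 2 and without recovery mouse 3, at adjusted p of 0.0542 to 0.0925. Rbl1, the RB-related p107, rose by 2.46 in the TAA group and fell by 2.19 in recovery. Cdkn2d, which encodes p19 of the INK4 family, fell by 1.05 in recovery against TAA, and by 0.93 without recovery mouse 1, which was under 2-fold.

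Cell cycle genes were high in the TAA livers beside these inhibitors. Of 10 cyclins and kinases of G1 and S phase, 5 rose, where 17.0% of all tested genes did so. They were led by Ccna2 (4.39), Ccnd1 (3.88), Ccne1 (1.72) and Ccne2 (1.49), with Ccnd2 at 1.27. In recovery against TAA 5 fell, where 14.3% of all tested genes did so. All 8 proliferation markers rose in the TAA group, with Ccnb1 at 4.80 and Top2a at 4.53, and all 8 fell in recovery. Against the control group, none of the 10 G1 and S phase genes met the criteria in recovery (4 at an unadjusted p under 0.05 in limma). Of the 8 proliferation markers 1 did (7 at an unadjusted p under 0.05 in limma). This was Top2a, the DNA topoisomerase of dividing cells, at 0.933, 1.07 and 1.22 in the recovery mice and 0.373 to 0.427 in the control mice (difference 1.22 ± 0.16, adjusted p = 0.0216 in limma). Its call was lost without any single control mouse and without recovery mouse 2 or 3. All 8 markers had a positive difference in recovery against control, with a median of 1.13, against 0.01 over all tested genes. The recovery mice lay above all control mice for 6 of the 8, and for 14.6% of all tested genes.

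Genes linked to senescence were read from 2 lists. Of 21 tested secreted factors and surface proteins, 9 rose and 1 fell (Vegfa) in the TAA group, where 17.0% and 8.02% of all tested genes did so. Mmp12 (4.02), Timp1 (3.45), Ccl2 (2.92) and Plaur (2.37) rose the furthest. These encode a macrophage elastase, an inhibitor of metalloproteinases, a monocyte chemokine and the urokinase receptor. In recovery against TAA 9 fell, led by Timp1 (-3.22) and Mmp12 (-3.16), and 1 rose (Il1b), where 14.3% and 7.12% of all tested genes did so. Timp1, Mmp13, Cxcl2 and Areg passed the filter on low values only with the TAA libraries included, where their levels were highest. Their control means were 0.0659, 0.0367, 0.0272 and 0 scaled FPKM. Their place among the risers is therefore no support, nor are the falls of Timp1, Mmp13 and Areg. Of 7 tested nuclear and lysosomal genes, 3 rose in the TAA group, where 17.0% of all tested genes did so. These were Hmgb2, a chromatin protein (2.01), H2afx, the histone marked at DNA breaks (1.58), and Lmnb1, lamin B1 (1.29). Lmnb1, whose loss is a mark of senescent cells, was at 4.45 to 4.73 scaled FPKM in the TAA mice, 1.61 to 2 in the control mice and 1.57 to 2.14 in the recovery mice. No gene of either list met the criteria in recovery against control in limma, where 5 and 3 genes had an unadjusted p under 0.05 and the smallest adjusted p, 0.0453 and 0.0324, belonged to genes with less than a 2-fold difference.

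Since Gdf15 and Cdkn1a also answer to other signals, lists of these were set beside them. Of 8 ATF4 and CHOP stress genes, 1 rose in the TAA group (Atf3, 2.06, lost without control mouse 2, TAA mouse 2 or TAA mouse 3). There 3 fell (Asns, Fgf21 and Trib3, by 2.52, 1.93 and 1.64), where 17.0% of all tested genes rose and 8.02% fell. None of the 8 met the criteria in recovery against control (5 at an unadjusted p under 0.05 in limma). Of 18 circadian clock genes, 2 rose and 6 fell in recovery against control, where 0.582% and 0.412% of all tested genes did so. Arntl, a core activator of the clock, was at 3.98, 6.11 and 6.64 in the recovery mice and 0.424, 0.971 and 0.635 in the control mice, and Dbp, a clock output gene, was at 10.3, 5.92 and 2.85 against 55.6, 47.1 and 55.4. Differences were 2.90 ± 0.31 (SE) for Arntl, 3.02 ± 0.34 for Npas2, -3.21 ± 0.42 for Dbp and -2.78 ± 0.42 for Ciart. Of 15 fasting and glucocorticoid response genes, Pdk4, a kinase that limits glucose oxidation, met the criteria in recovery, at 16.6, 23.0 and 24.0 scaled FPKM against 3.85, 5.42 and 2.68 in the control mice. In limma the calls of Arntl, Npas2, Dbp and Ciart were all lost without control mouse 3, and at least 1 of them without any other of the 6 mice, at adjusted p of 0.0562 to 0.117, and that of Pdk4 was lost without recovery mouse 2 (0.0802) or 3 (0.0693). The part of these differences in the level of Cdkn1a was not tested.

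**Figure D4:**
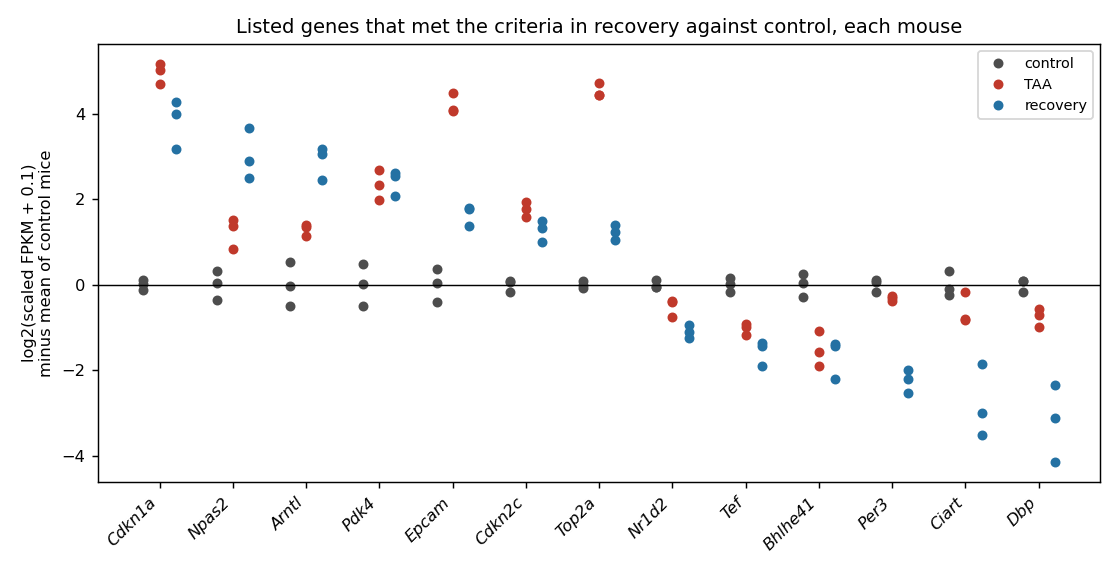
Log2(scaled FPKM + 0.1) minus the control mean in each of the 9 mice, for Cdkn1a and the 12 other listed genes that met the criteria in recovery against control. Cdkn1a in recovery stands at 3.18 to 4.27, the clock activators Npas2 and Arntl are also high, and the clock outputs Dbp and Ciart are low.

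Markers of the liver cell types moved with the groups as well. In the TAA group 5 of 6 stellate cell, 5 of 6 cholangiocyte and 3 of 6 macrophage markers rose, 1 of 6 lymphocyte markers rose (Cd8a, not without control mouse 1, TAA mouse 1 or TAA mouse 2), none of 6 endothelial markers met the criteria (1 at an unadjusted p under 0.05 in limma), and 3 of 6 hepatocyte markers fell. Over all tested genes, 17.0% rose and 8.02% fell in the TAA group. The summed level of the 6 cholangiocyte markers was 18.6 to 25.0 scaled FPKM in the control mice, 299.3 to 447.3 in the TAA mice and 32.9 to 43.9 in the recovery mice. That of the 6 stellate cell markers was 29.6 to 38.7, 120.6 to 157.1 and 28.9 to 37.5, and that of the 6 macrophage markers 82.7 to 106.6, 154.7 to 218.4 and 108.9 to 145.4. Against control, the only marker that met the criteria in the recovery livers was Epcam, an adhesion protein of biliary cells, at 1.10, 1.52 and 1.48 against 0.249, 0.377 and 0.499 (difference 1.65 ± 0.25 SE), a call that was lost on leaving out any single mouse of the 6. In the recovery livers the summed cholangiocyte and the summed macrophage markers lay above all control mice. Taken singly, 5 of the 6 cholangiocyte and 0 of the 6 macrophage markers did so, and Itgam differed from control by -0.854. Most of the cholangiocyte sum was Spp1 (23.6 to 31.7 in recovery, 13.8 to 18.0 in control). In recovery most of the macrophage sum was Lyz2 (41.3 to 66.5) and Clec4f (35.2 to 39.0), which both overlapped the control mice. In the TAA mice Lyz2 was at 96.5 to 152.3 (43.3 to 47.2 in control) and Clec4f at 20.2 to 23.9 (13.8 to 36.2 in control). Most of the stellate cell sum in recovery and control was Reln (19.4 to 22.6 in recovery, 19.7 to 27.6 in control). In the TAA mice Col1a1 was its largest part, at 49.3 to 78.2, beside Reln at 37.9 to 48.3. Within that list Col1a1 (1.16 to 3.60 against 0.995 to 1.04) and Pdgfrb (2.37 to 3.37 against 1.51 to 1.82) also lay above all control mice in recovery, without meeting the criteria. Lrat, Reln, Acta2 and Des overlapped the control mice, with differences of -0.315, -0.165, -0.106 and 0.336. Of all tested genes, 14.6% lay above all control mice in recovery. The part of cell composition in the levels of the 10 genes was not tested.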

How the data were processed

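Liver RNA of 9 mice was analysed, 3 per group, grouped by the treatment in their labels. The authors mapped paired-end reads to mm10 with HISAT2 2.2.1, counted them on genes with featureCounts 1.5.0-p3 and deposited the values as FPKM. Read counts and the small RNA libraries were not used here. Each library was scaled by its median ratio to the geometric mean, over the 14005 genes above 0 in all 9 libraries. The factors were 0.827 to 0.878 for control, 1.29 to 1.38 for TAA and 0.893 to 0.907 for recovery livers. Each comparison was fitted on its own 6 libraries by limma's moderated linear model with a mean-variance trend (limma 3.58.1, R 4.3.3), and p was adjusted by the Benjamini-Hochberg method across the 14094 genes whose mean FPKM reached 0.1. The steps were tested on simulated data. Low FPKM times exon length change in steps of 1 fragment, from which depth was estimated; this gave whole fragments (within 0.08) for 50.5% to 62.0% of low values, against 16% by chance, so fragment numbers are estimates and no count test was run. Each sample is labelled as a liver replicate and the methods describe separate mice, and p-values measure the spread between these samples. Replicate libraries correlated at 0.975 to 0.987 across genes. Gene positions and exon lengths are from GENCODE M21, whose locus was identical for 92.3% of the genes, and promoter windows are from RefSeq.

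The 10 genes and all other lists were chosen with earlier results of these data known. Named were all 10 genes, up to 4 genes with the largest difference per list and comparison among those that met the criteria, Trp53 and Mdm4, and the 10 genes most like Cdkn1a. Genes outside this rule, such as Ei24, Ccnd2, Vegfa, Il1b, Reln and Clec4f, were named after their values were seen. Of the listed genes, H2afy was matched through its newer symbol, and Ddit3 has overlapping entries of which a single entry was used, so its value is uncertain. Alternatives were another pseudocount, filter, scaling, set of libraries and variance model, a replicate block, and leaving out each mouse.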

Additional observations from a re-analysis of the deposited data

How the results depend on the processing

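Among the 10 genes and the other p53 targets, counts moved with the pseudocount, the filter on low values and the scaling. With a pseudocount of 1 in place of 0.1, 5 rather than 9 of the 10 genes met the criteria in TAA against control, 5 rather than 8 other p53 targets did in recovery against TAA, and the fitted recovery difference of Cdkn1a exceeded the median of those of the other 9 genes by 2.88 rather than 3.55 (a difference of group fits, not the mean over mice given above). Without scaling, 9 rather than 6 of the 10 genes and 11 rather than 8 other p53 targets met the criteria in recovery against TAA, and 12 rather than 9 other p53 targets in TAA against control. Leaving out each mouse in turn gave 7 to 9 of the 10 genes in TAA against control and 5 to 7 in recovery against TAA. For the other p53 targets it gave 9 to 10 and 7 to 9, in that order. The excess of Cdkn1a over the median of the other 9 genes was then 3.33 to 3.73. The recovery difference of Cdkn1a from control ranged from 3.01 to 4.14 over 15 alternatives, which all use the values that chose the gene. Gdf15 missed the criteria in the TAA group in 9 alternatives and Cdkn2a in 6, control mouse 3 and TAA mouse 3 being among the mice whose omission ended both. The difference of Cdkn2a between recovery and TAA changed from -0.21 to 0.48 with quantile normalization, and that of Cdkn2b between recovery and control from 0.10 to -0.086 with quantile normalization, and lay between -0.15 (without recovery replicate 3) and 0.41 with each mouse left out. The cause was not tested. Over all genes, those that met the criteria in recovery against control numbered 140, with 17 to 235 in the alternatives, those in TAA against control 3520 and those in recovery against TAA 3017, with 1780 and 1460 at a pseudocount of 1. Without scaling, 4803 genes met them in TAA against control and 4137 in recovery against TAA. As higher in TAA against control, 890 rather than 2389 genes met them at a pseudocount of 1, and as lower 890 rather than 1131. With a filter at a mean FPKM of 1, 1176 genes met them as higher and 1028 as lower, a share of higher ones of 53.4%. Of the 10 genes 8 were then tested, and 7 met the criteria in TAA against control. With the replicate number as a block, 8, 6 and 1 of the 10 genes and 9, 8 and 0 other p53 targets met the criteria in the 3 comparisons, and Gdf15 was the member that no longer did. Deviations of same-numbered mice correlated at -0.07 to 0.13, so the numbers do not pair the mice. Cdkn2a and Cdkn2b are limited by depth.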
